A study of Arabidopsis thaliana with 15 samples.

Results

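Heat shock factors and the MBF1 coactivators are the transcriptional regulators of the plant heat stress response, and their transcripts were followed here in Arabidopsis pollen and pollen tubes. They were chosen as 10 named loci, and the 5 that have a probe set pairing with a single gene were measured, among 22746 probe sets in all. The measured members are HSFA1A (AT4G17750), HSFA2 (AT2G26150), HSFA5 (AT4G13980), HSFB1 (AT4G36990) and MBF1C (AT3G24500). MBF1A (AT2G42680), MBF1B (AT3G58680), HSFA3 (AT5G03720), HSFA7A (AT3G51910) and HSFB2A (AT5G62020) were not analysed here.

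The data come from 15 Affymetrix ATH1 arrays of wild-type Col-0 pollen from plants kept at 21 °C. Ungerminated dry pollen, pollen cultured for 0.5 h (0.5 h PT) and pollen cultured for 4 h (4 h PT) have 4 arrays each, and semi in vivo pollen tubes (SIV PT) have 3. Both cultured conditions grew in medium at 24 °C and were spun at 4000 rpm for 5 min before freezing, and on average 58.3% of the grains had germinated by 4 h. SIV PT are tubes that crossed the stigma and style of a cut pistil, came out onto solid medium and were cut off there. By the study's methods the pistils were of ms1, a male-sterile mutant of the Landsberg ecotype. Each SIV PT sample pooled bundles from 800 pistils, and labelling started with 2 µg of total RNA for SIV PT and with 5 µg for each of the other conditions. The labels give the SIV PT times in one field as 3 h in the pistil and 5 h on medium, and the protocol text gives other times. No heat treatment is named in the labels, and an incubation temperature for SIV PT is not given. Replicates are called biological in the labels, with nothing on separate cultures, so the p-values measure the spread between these samples.

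Plant heat shock factors bind heat shock elements in the promoters of chaperone genes. Class A factors carry activator motifs, and class B factors lack them and mostly act as repressors. Among the class A factors, those of the HSFA1 group are present before stress and start the response, and HSFA2 is itself made upon stress and prolongs it. MBF1C, a multiprotein bridging factor, links transcription factors to the basal machinery and is the stress-inducible member of its family in Arabidopsis. Pollen is known as a heat-sensitive stage of plant reproduction.

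Values are array signals on a linear scale, and changes are differences of log2(signal + 64), which are smaller than ratios of the signals where a signal is near or below 64, and whose size then depends on the offset of 64. A gene counts as changed where B, limma's log odds of a change, is above 3 and the change is at least 3-fold. All 5 comparisons share arrays: dry pollen and 4 h PT each stand in 3 of them, and SIV PT and 0.5 h PT in 2 each. RNA was taken from bulk samples, so fewer cells of a type and less RNA per cell cannot be told apart.

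The 3 SIV PT arrays stood apart from the other 12 in the number of probe sets at a log2 signal of 8 or more (6038 to 6079, against 5029 to 5817), and 4 h PT replicate 4 had the highest number outside SIV PT. The 4 measured pistil markers, of 12 listed, had a summed signal of 128 to 436 on the SIV PT arrays. It was 195 to 396 after 4 h, 215 to 408 after 0.5 h and 184 to 329 on the dry pollen arrays. In every condition 0 of the 4 reached a mean at that limit. CES had its highest mean in SIV PT, at 125 ± 127 (SD), against 27.0 ± 26.7 in 4 h PT. That difference had an unadjusted p under 0.05 in limma (adjusted p = 0.155). SPT and INO had their lowest means in SIV PT, at 55.7 and 16.0. The 4 measured pollen vegetative cell markers, of 8 listed, all had means above a log2 signal of 8 in every condition. Their summed signals were between 63719 and 65857 on SIV PT arrays and between 92341 and 115683 on the other 12. Of these markers 1, PRK2A, fell in SIV PT against dry pollen and against 4 h PT, with means of 7862, 46470 and 48277. ANX1 had a higher mean in SIV PT (23389) than in dry pollen (11620). ANX2 (30156 and 32501) and CNGC18 (3424 and 4510) were lower there by less. MGH3, the 1 measured of 6 sperm markers, stood between 5988 and 8157 on SIV PT arrays and between 7935 and 10285.5 elsewhere. RCA, the 1 measured of 6 green tissue markers, stood between 109 and 199 on SIV PT arrays and between 53.2 and 205 elsewhere. Ratios of 3′ to 5′ signal were higher on all SIV PT arrays than on all others for 3 of 6 pairs of control probe sets. One GAPDH pair stood at 6.59 to 9.72 in SIV PT and at 1.25 to 2.88 on the other arrays, while a second GAPDH pair overlapped, at 1.08 to 1.37 in SIV PT and 0.435 to 1.21 on the others. Of the 4 h PT arrays, replicate 4 had a ratio of 8.62 for one actin pair, against 0.942 to 1.38 on its companions. On the 12 arrays outside SIV PT that pair ran from 0.349 to 12.4. Replicate 4 was also above its companions for the second GAPDH pair (1.21, against 0.435 to 0.890). It was below them for one ubiquitin pair (0.503, against 0.708 to 0.888) and within their range for the other pairs. The part of RNA input and RNA quality in the results of SIV PT and of 4 h PT replicate 4 was not tested.

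HSFA1A, a founding activator of the heat response that is made without stress, gave signals that overlapped between the 4 conditions. Its signal was 367, 384, 223 and 233 on the dry pollen arrays and 446, 203, 315 and 359 after 0.5 h. The 4 h PT arrays gave 418, 344, 293 and 472, and the SIV PT arrays 375, 307 and 400.3. The groups overlapped in all 5 comparisons. The log2 change was 0.24 ± 0.24 (SE) in SIV PT against dry pollen, with a 95% interval of -0.28 to 0.76, and -0.06 ± 0.24 in SIV PT against 4 h PT, with an interval of -0.58 to 0.46. Both intervals leave out a change of 3-fold. The sign of these small differences depends on the scaling, since after quantile normalization SIV PT against dry pollen was at -0.17.

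HSFA2, the stress-induced activator, had weak signals in dry pollen and strong ones in SIV PT. Dry pollen had signals of 9.21, 7.62, 12.5 and 9.67. The 0.5 h PT arrays gave 7.27, 13.4, 7.81 and 52.5, and the 4 h PT arrays 16.6, 12.2, 8.50 and 118. SIV PT gave 1654, 878 and 498. Every SIV PT array was above every other array, the lowest of them over 4 h PT replicate 4, which itself stood clear of its 3 companions. HSFA2 averaged 1010.1 ± 589 in SIV PT (SD, n = 3) and 38.7 ± 52.7 in 4 h PT (n = 4), and 9.75 ± 2.02 in dry pollen (n = 4).

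On the log2(signal + 64) scale HSFA2 rose by 3.72 ± 0.36 (SE, 13.1-fold, adjusted p = 8.56e-07) in SIV PT against dry pollen. Against 4 h PT it rose by 3.35 ± 0.36 (10.2-fold, adjusted p = 4.32e-06). Outside SIV PT HSFA2 is near the floor, so the offset sets the size of both changes: with a larger and a smaller offset they were 2.15 and 5.16 against dry pollen and 2.01 and 4.46 against 4 h PT, all called. The 3 comparisons without SIV PT gave overlapping groups and small changes. They were 0.36 for 4 h PT over dry pollen (adjusted p = 0.731), 0.20 for 4 h PT over 0.5 h PT (adjusted p = 0.898) and 0.16 for 0.5 h PT over dry pollen (adjusted p = 0.999). Of the 3 SIV PT arrays, replicate 1 was more than 3 times as high as replicate 3 for this gene.

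HSFA5, a class A factor known to inhibit the related HSFA4 by forming complexes with it, ran the other way. Dry pollen had 2278, 2345, 1930.03 and 2064, and 0.5 h PT had 2136, 2063, 2321 and 1867, and these groups overlapped. The 4 h PT arrays gave 1519, 1264, 1866 and 774, all under the 0.5 h PT arrays, the highest of them by a small margin. SIV PT gave 419, 393 and 327, below every other array.

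HSFA5 averaged 379 ± 47.6 in SIV PT (SD, n = 3), 1356 ± 459 in 4 h PT and 2154 ± 192 in dry pollen (n = 4 each). It fell by 2.32 ± 0.23 on the log2 scale in SIV PT against dry pollen (SE, 5.01-fold, adjusted p = 1.26e-06). Against 4 h PT it fell by 1.62 ± 0.23 (3.07-fold, adjusted p = 8.05e-05), just past the 3-fold limit. That call was lost, at -1.45 to -1.68, without any 1 of 4 h PT replicates 1, 2 and 3 or SIV PT replicates 1, 2 and 3, because the change came below 3-fold or B came below 3. In the comparisons without SIV PT no change passed, with -0.70 for 4 h PT over dry pollen (adjusted p = 0.121), -0.67 for 4 h PT over 0.5 h PT (adjusted p = 0.196) and -0.04 for 0.5 h PT over dry pollen (adjusted p = 0.999).

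HSFB1, a class B repressor that dampens heat-inducible genes, stayed in the range of weak signals. Its lowest and highest signals were 5.45 and 70.2 in dry pollen and 24.5 and 103 after 0.5 h. They were 10.7 and 157 after 4 h, and 4.42 and 104 in SIV PT. All groups overlapped, and the range of signals within each condition was wider than any difference between condition means. The log2 changes ran between -0.29 (SIV PT against 4 h PT, 95% interval -1.10 to 0.53) and 0.53 (0.5 h PT against dry pollen, -0.23 to 1.28). Changes of any size inside these intervals remain possible at signals this weak.

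MBF1C, which moves to the nucleus and is needed for heat tolerance in Arabidopsis, had its lowest mean in dry pollen, higher means after 0.5 h and 4 h of culture, and its highest mean in SIV PT. Dry pollen gave 207, 60.9, 16.7 and 9.58, and 0.5 h PT gave 248, 213, 246 and 253. The 4 h PT arrays gave 1165, 637, 1826 and 3501, and SIV PT gave 9832, 6841 and 9616. No array of 1 condition overlapped with one of another, although 0.5 h PT replicate 2 and dry pollen replicate 1 were close. The 4 dry pollen arrays spread more widely, relative to their mean, than those of any other condition for this gene.

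MBF1C averaged 8763 ± 1668 in SIV PT (SD, n = 3) and 73.4 ± 91.6 in dry pollen (n = 4), and it rose by 6.19 ± 0.47 (SE, 73.2-fold, adjusted p = 7.55e-08). It rose by 3.71 ± 0.44 (13.0-fold, adjusted p = 0.000121) in 4 h PT, at 1782 ± 1245, against dry pollen. With a larger and a smaller offset these changes were 4.79 and 7.14 in SIV PT and 2.47 and 4.60 in 4 h PT, all called. Against 4 h PT, SIV PT was 2.49 ± 0.47 higher (5.61-fold, adjusted p = 0.00107), and 4 h PT was 2.35 ± 0.44 higher than 0.5 h PT (5.11-fold, adjusted p = 0.00958). These 2 differences have B values of 1.03 and 1.70, so they did not pass. The first passed without 4 h PT replicate 4 (2.89, adjusted p = 0.000167), and the second without 4 h PT replicate 2 (2.74, adjusted p = 0.0025). In 0.5 h PT, at 240.1 ± 18.0, against dry pollen the difference was 1.35 ± 0.44 (2.55-fold, adjusted p = 0.577).

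**Figure D1:**
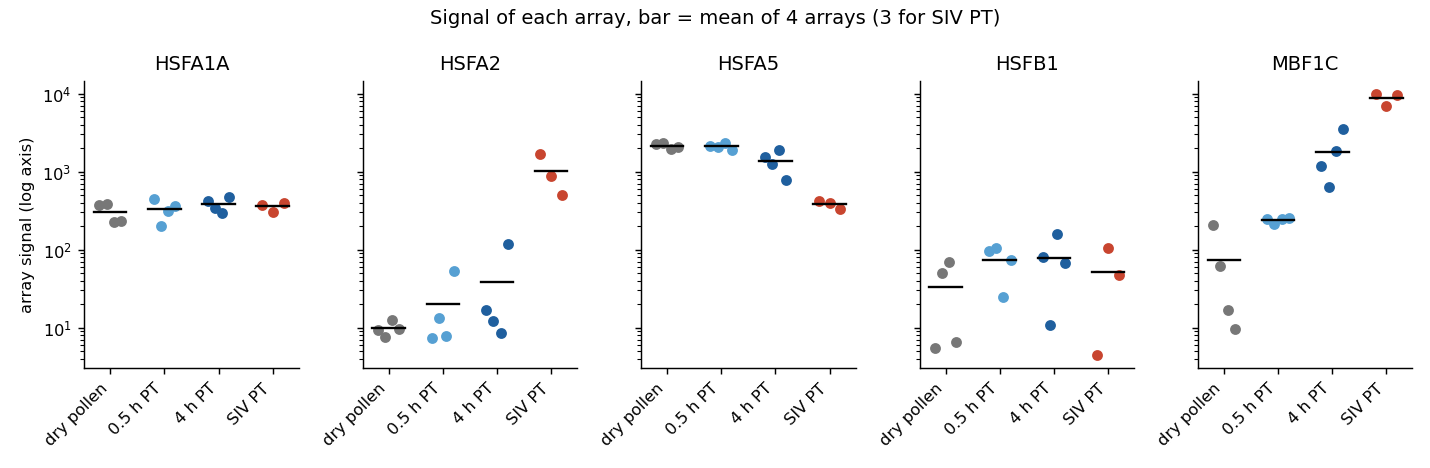
Array signal on a log axis for the 5 measured members, with the conditions from dry pollen at the left to SIV PT at the right; each point is an array and the bar is the mean of 4 arrays (3 for SIV PT). HSFA2 in SIV PT lies between 498 and 1654 while every other array is at 118 or less, MBF1C has no overlap between conditions, and HSFA5 is lowest in SIV PT, at 327 to 419.

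Counted together, 2 of the 5 members rose and 1 fell in SIV PT against dry pollen, where 4.08% of all probe sets rose and 2.82% fell. In SIV PT against 4 h PT 1 rose and 1 fell (background 2.71% and 2.08%), and in 4 h PT against dry pollen 1 rose and 0 fell (0.717% and 0.0484%). In 4 h PT against 0.5 h PT 0 members changed in limma (0.51% and 0%), with 2 at an unadjusted p under 0.05, MBF1C and HSFA5. In 0.5 h PT against dry pollen 0 changed (0.0264% and 0.0352%), with 1, MBF1C, at an unadjusted p under 0.05. All 5 members owe their names to the study's supplementary tables, which include lists of changed genes. In the lists described further on, this holds for 9 of the 15 target genes and all 5 other heat shock factors. It also holds for 3 of the 7 regulators and 2 of the 4 constitutive chaperones. Of the 1908 probe sets named that way 18.0% rose in SIV PT against dry pollen, against 3.27% of the 13285 named by the platform table. The shares that fell there were 3.25% and 2.90%. Shares by source of the name are not given here for the other comparisons.

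**Figure D2:**
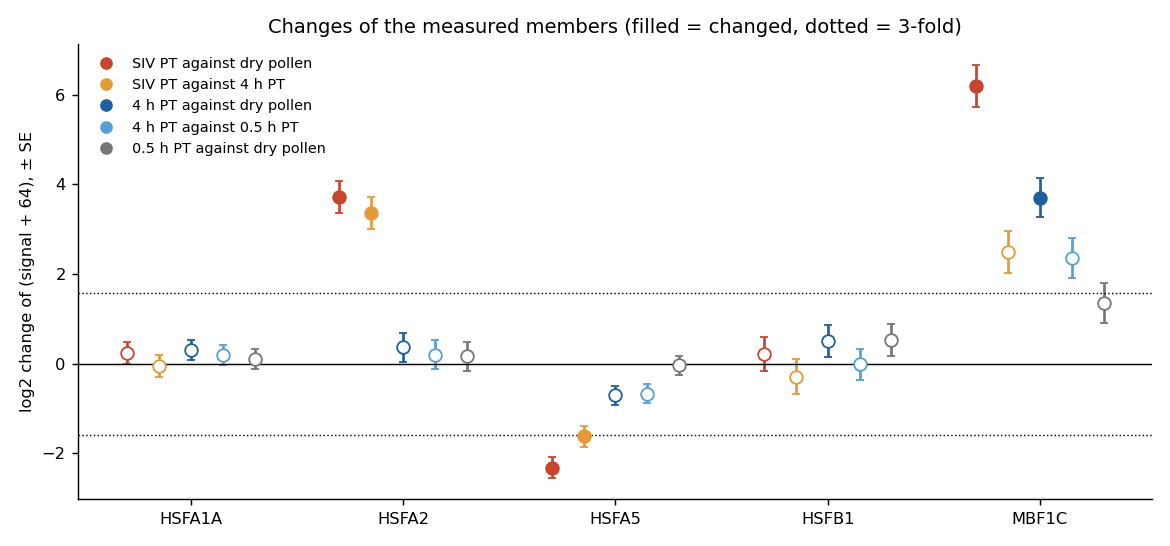
Log2 change of (signal + 64) with its standard error for each member in the 5 comparisons; filled points changed (B above 3 and at least 3-fold), and dotted lines mark 3-fold. MBF1C reaches 6.19 in SIV PT against dry pollen, HSFA2 is near 0 in the 3 comparisons without SIV PT, and HSFA5 is negative wherever SIV PT or 4 h PT comes first.

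Other genes were described by how closely they followed the members over the 15 arrays, as Pearson's r on log2(signal + 64), a description over arrays that share conditions. Only probe sets named with a single gene were ranked. HSFA2 was followed most closely by AT2G14110 (r = 0.98), with a mean signal of 215 in dry pollen, 432 after 4 h and 5172 in SIV PT. Next came AT4G31070, HT1, PERK3 and AT1G06650. HT1 encodes a kinase of stomatal signalling and PERK3 a receptor-like kinase of the PERK family, and both were low outside SIV PT (HT1 at 24.0 in dry pollen and 424 in SIV PT). None of these 5 is on the lists of heat genes used here.

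MBF1C was followed most closely by a heat gene. HSP17.4, a cytosolic small heat shock protein, had r = 0.99 and a mean signal of 318 in dry pollen, which stood at 678 after 0.5 h, at 4109 after 4 h and at 14555 in SIV PT. The kinase gene MPK19, AT1G27620, AT1G59910 and AT1G67360 came next, all with r of 0.98. For HSFA5 the closest were GAUT14, a galacturonosyltransferase of pectin synthesis (r = 0.99), AT5G43460, GPDHp, AT5G15950 and AT3G52610. GAUT14 averaged 9161 in dry pollen, 8656 after 0.5 h, 6117 after 4 h and 2364 in SIV PT. Between members, r was 0.81 for HSFA2 with MBF1C, -0.93 for HSFA2 with HSFA5 and -0.89 for MBF1C with HSFA5.

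Of 14 other heat shock factor genes, 5 were measured. HSFA1D, a further activator of the HSFA1 group, rose in SIV PT against dry pollen by 1.60 ± 0.23 (3.04-fold, adjusted p = 6.52e-05), with 880 ± 161 in SIV PT and 244 ± 24.7 in dry pollen. It was close to the 3-fold limit, and the call was lost after quantile normalization (1.11), with a smaller or a larger offset than 64 (1.77 and 1.17), and without dry pollen replicate 1, 2 or 4 or SIV PT replicate 1 or 3. HSFB2B, a repressor, averaged 464 ± 112 in SIV PT and 168 ± 42.3 in 4 h PT, a difference of 1.18 ± 0.25 (adjusted p = 0.00216) that is under 3-fold. In SIV PT against dry pollen 1 of the 5 rose, beside 4.08% of all probe sets. In the other 4 comparisons 0 changed, and 0 to 2 had an unadjusted p under 0.05. The median change of the 5 in SIV PT against dry pollen was -0.05, beside -0.06 over all probe sets.

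Of 12 listed regulators and partners of these factors, 7 were measured. The list also holds BZIP17, BZIP28 and BZIP60, factors of the unfolded protein response. In SIV PT against dry pollen 4 of the 7 rose, beside 4.08% of all probe sets. The median log2 change was 2.44, the value of BZIP60 itself. ROF1 and ROF2, peptidyl-prolyl isomerases that bind HSP90 and modulate HSFA2 activity, rose by 3.80 ± 0.45 and 3.91 ± 0.59. DREB2A, a dehydration and heat stress activator that HSFA1 factors switch on in Arabidopsis, rose by 3.68 ± 0.43. BZIP60, a factor of the unfolded protein response in the endoplasmic reticulum, rose by 2.44 ± 0.17, with 9222 ± 548 in SIV PT and 1659.9 ± 214 in dry pollen. Each has an adjusted p of 9.94e-05 or less. The ROF2 call was lost with a smaller offset, without any 1 of SIV PT replicates 1 to 3 and without dry pollen replicate 2, 3 or 4. TPS5, a trehalose phosphate synthase that MBF1C binds, had signals near the floor (mean 19.4 in SIV PT and 12.3 in dry pollen).

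In SIV PT against 4 h PT 2 of the 7 regulators and 2.71% of all probe sets rose (medians 1.79 and -0.07). The 2 regulators were ROF1 at 2.93 ± 0.45 and BZIP60 at 2.09 ± 0.17. Leaving out any 1 of 4 h PT replicates 1 to 3 or of SIV PT replicates 1 to 3 left 1. In the other 3 comparisons 0 changed in limma, with 3 at an unadjusted p under 0.05 for 4 h PT over dry pollen, 2 for 4 h PT over 0.5 h PT and 0 for 0.5 h PT over dry pollen. The largest of these differences was DREB2A at 1.88 ± 0.39 in 4 h PT against dry pollen (adjusted p = 0.0168), with 1047 ± 629 in 4 h PT and 209 ± 69.0 in dry pollen.

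Of 20 heat-induced chaperone and other target genes, 15 were measured. In SIV PT against dry pollen 11 rose, 0 fell and 4 did not pass, with a median log2 change of 5.08. Over all probe sets 4.08% rose and 2.82% fell. Of the probe sets named by the supplementary tables, as 9 of these 15 are, 18.0% rose. The calls of HSA32, HSP18.2 and HSP23.5 were lost with a smaller offset and without SIV PT replicate 1 or 3, and in further alternatives for HSA32 and HSP18.2. HSP90.1, the heat-induced cytosolic HSP90, averaged 19066 ± 2301 in SIV PT and 113 ± 16.8 in dry pollen and rose by 6.75 ± 0.50 (adjusted p = 5.71e-08). HSP101, the disaggregase that rescues aggregated proteins, averaged 4327 ± 1080 in SIV PT and 12.6 ± 4.59 in dry pollen and rose by 5.81 ± 0.45 (adjusted p = 8.50e-08). HSP70B rose by 5.47 ± 0.56, and the small heat shock protein HSP17.6II rose by 5.46 ± 0.42.

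In 4 h PT against dry pollen 8 of the 15 target genes rose, 0 fell and 7 did not pass. Over all probe sets 0.717% rose and 0.0484% fell. The median of the list was 2.70, beside 0.01 over all probe sets. Among the target genes that did not pass were HSP23.6 at 0.02, HSP15.7 at 0.21 and HSA32 at 0.52. The count was 4 to 11 over the alternatives, and 4 with a larger offset, where HSP101, HSP18.2, HSP22.0 and HSP90.1 were lost. HSP17.6A rose by 3.34 ± 0.40, HSP17.4 by 3.25 ± 0.38, HSP101 by 3.18 ± 0.42 and HSP90.1 by 3.13 ± 0.47, each with an adjusted p of 0.000925 or less. The HSP90.1 call was also lost with the replicate block, without 4 h PT replicate 3 and without any 1 of the 4 dry pollen replicates. In 4 h PT against 0.5 h PT 3 rose, HSP17.6A, HSP101 and HSP22.0, beside 0.51% of all probe sets. The median over the list was 2.28. Over the alternatives 2 to 9 rose there, with 9 without 4 h PT replicate 2 and 5 without replicate 1. HSP101 was lost without 0.5 h PT replicate 1, 2 or 4, without 4 h PT replicate 3 and with a larger offset, where HSP22.0 was lost too. In 0.5 h PT against dry pollen 0 changed in limma, with 1 at an unadjusted p under 0.05, and the median was 0.39.

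In SIV PT against 4 h PT 1 of the 15 target genes rose, HSP90.1 by 3.62 ± 0.50 (adjusted p = 6.36e-05), beside 2.71% of all probe sets. The other 14 did not pass, although the median change was 2.04, beside -0.07 over all probe sets. Without 4 h PT replicate 4, 7 rose. Without 4 h PT replicate 1 or any 1 of the 3 SIV PT replicates, 0 rose. With adjusted p under 0.05 alone as the limit 12 were higher and 1 lower. The lower one, HSP22.0, a small heat shock protein of the endoplasmic reticulum, averaged 154 ± 27.2 in SIV PT and 375 ± 135 in 4 h PT, a difference of -0.96 ± 0.23 (adjusted p = 0.00557). Its mean in dry pollen was 17.9, so 4 h PT held its highest mean.

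**Figure D3:**
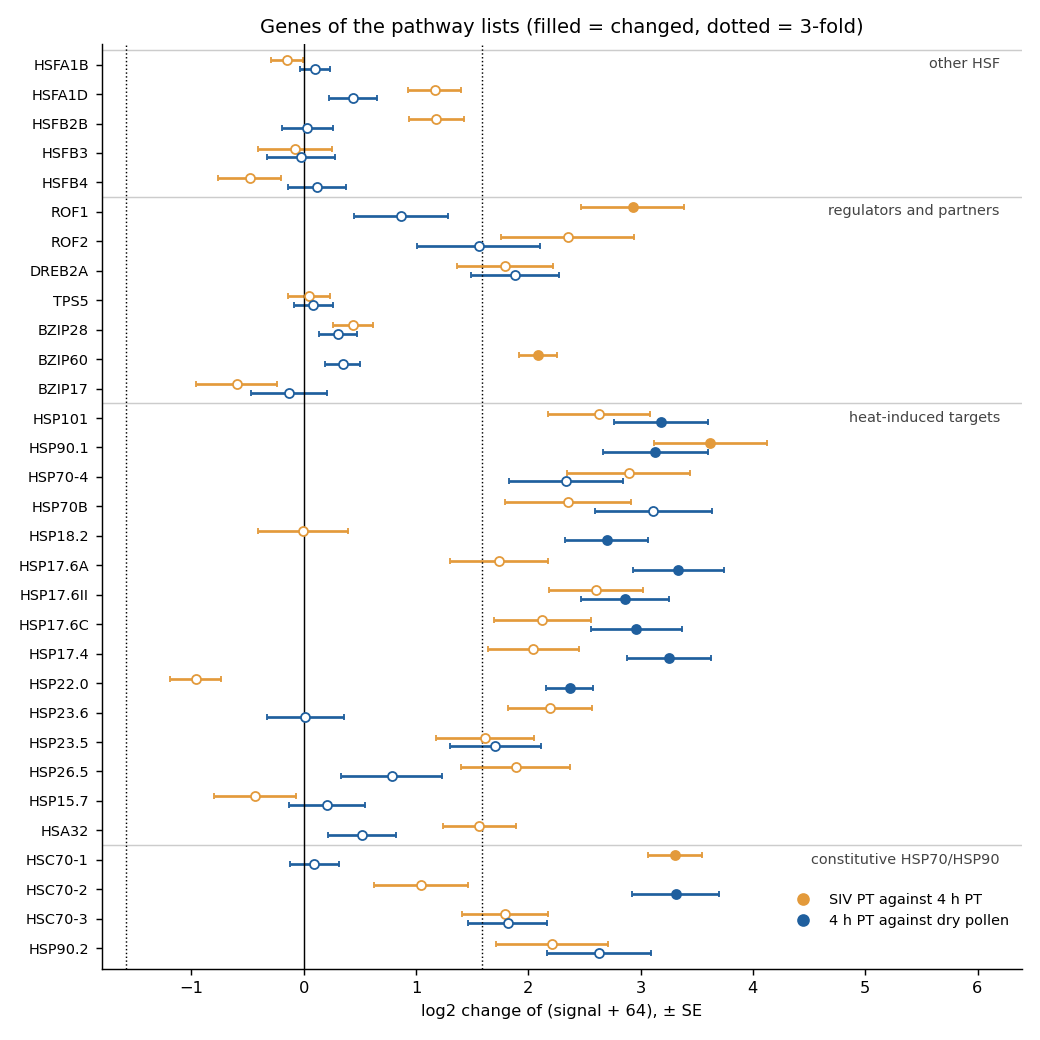
Log2 change of (signal + 64) with its standard error for the measured genes of the 4 pathway lists for SIV PT over 4 h PT and for 4 h PT over dry pollen; filled points changed and dotted lines mark 3-fold. Most heat-induced targets lie past the upper 3-fold line in both comparisons. Of the 15, however, 1 changed for SIV PT over 4 h PT and 8 for 4 h PT over dry pollen. HSC70-1 (3.31) and BZIP60 (2.09) are past the upper line for SIV PT over 4 h PT and at 0.09 and 0.35 for 4 h PT over dry pollen.

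The constitutive cytosolic chaperones, of which 4 of 6 were measured, all rose in SIV PT against dry pollen (median 3.98), beside 4.08% of all probe sets. HSP90.2 rose most, by 4.85 ± 0.50 (adjusted p = 1.85e-06). HSC70-1, the main housekeeping HSP70, averaged 7900 ± 949 in SIV PT, 777 ± 327 in 4 h PT and 696 ± 134 in dry pollen. It rose by 3.31 ± 0.24 in SIV PT against 4 h PT (adjusted p = 8.99e-08), and in 4 h PT against dry pollen its difference was 0.09 ± 0.22 (adjusted p = 0.922). HSC70-2 rose by 3.31 ± 0.39 in 4 h PT against dry pollen (adjusted p = 0.000101) and its difference in SIV PT against 4 h PT was 1.05 ± 0.42 (adjusted p = 0.0933). In each of these comparisons with 4 h PT 1 of the 4 rose. Over all probe sets 2.71% rose in SIV PT against 4 h PT and 0.717% in 4 h PT against dry pollen. For 4 h PT over 0.5 h PT 0 changed in limma, with 3 at an unadjusted p under 0.05, and for 0.5 h PT over dry pollen 0 changed, with 1. These HSP70 genes have near-identical copies, so a probe set may read more than 1 of them.

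The lists were read array by array beside the members. The mean log2(signal + 64) of the 15 target genes was 7.11 to 7.29 on dry pollen arrays and 7.35 to 7.72 after 0.5 h. It was 8.39 to 10.4 after 4 h, and 10.9 to 11.3 on SIV PT arrays. Among the 4 h PT arrays the order of this mean was the order of MBF1C. Replicate 4 was the highest in both, with an MBF1C level of 11.8 and a target mean of 10.4, and replicate 2 was the lowest in both, at 9.45 and 8.39. Replicate 4 was also the highest of the 4 in HSFA2 (7.50, against 6.18 to 6.33) and the lowest in HSFA5 (9.71, against 10.4 to 10.9). HSFA2 on 4 h PT replicates 1 to 3 was at 6.18 to 6.33, against 6.16 to 6.26 in dry pollen, both near the floor of this scale. The part of any member in the levels of the target genes was not tested.

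**Figure D4:**
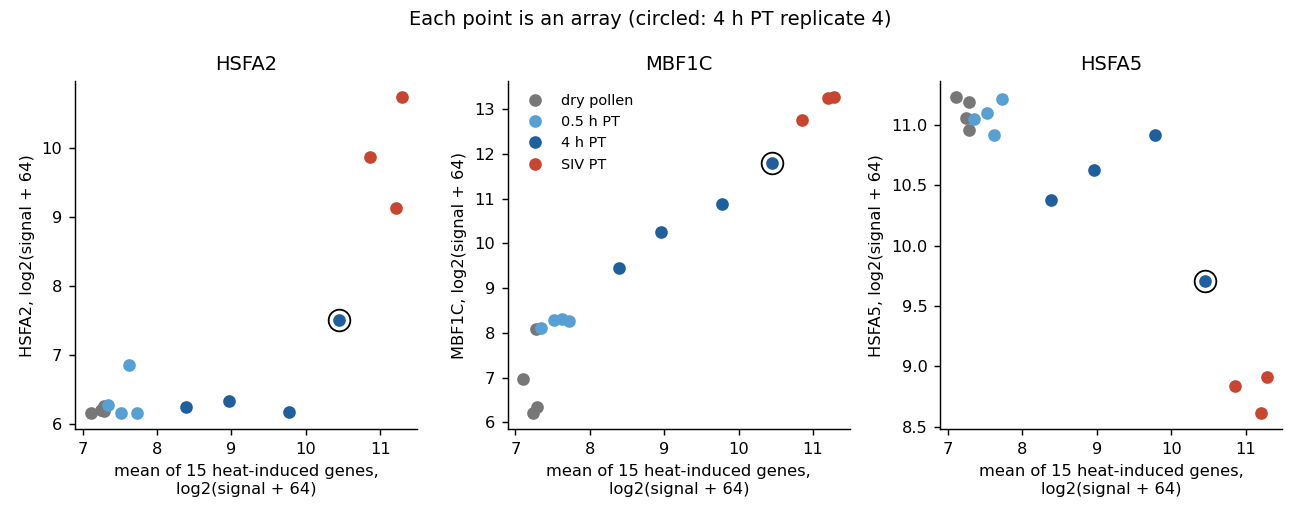
Log2(signal + 64) of HSFA2, MBF1C and HSFA5 on each array against the mean of the 15 heat-induced target genes on the same array, with 4 h PT replicate 4 circled. MBF1C is higher where the target mean is higher between conditions and among the 4 h PT arrays. HSFA2 lies near the floor, between 6.16 and 6.33, on 4 h PT replicates 1 to 3 and on most dry pollen and 0.5 h PT arrays and is above 9 in SIV PT alone.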

How the data were processed

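The intensity values are signals per probe set that the authors made with GCOS, which the submitters' processing notes name, and deposited as linear values, each array scaled to a 2% trimmed mean of about 500. Its version was not given in the sources used here. The 15 arrays were grouped by their titles. The 64 control probe sets were left out, and log2(signal + 64) of 22746 probe sets was fitted in limma 3.58.1 (R 4.3.3), with 1 mean per condition, all 15 arrays and no variance trend (11 residual and 3.97 prior degrees of freedom). Adjusted p-values are Benjamini-Hochberg values over all probe sets within a comparison. The methods of the study used RMA, which needs probe-level values, and its limits on B and fold were kept. The number of arrays limits the precision. The fit was tested on simulated data.

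The platform table named 13285 probe sets, and the study's supplementary tables, used for names only, 1908 more. Another 516 pair with several genes, in 142 the sources differ, and 6895 have no single gene here. The members and lists were chosen with earlier results of these data known. For each list and comparison the rule took up to 4 called genes with the largest changes. Where none was called, it took the 1 with the largest change. Text names all measured members and genes so taken, but not all of the latter, and HSFB3 is among those left out. Text also names the 5 single-gene probe sets most like each called member. TPS5, HSP22.0 in SIV PT and other genes outside this rule were chosen after their values were seen. Planned searches of promoters and proteins were not run, because sequences were not used here. Offsets, scaling, a dim filter, a replicate block, a variance trend, other limits and leaving out each array were tried as alternatives.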

Additional observations from a re-analysis of the deposited data

Results flagged for a closer look

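Among 15 groups of 4 arrays tested for a single value far from the rest, 2 held one, both for HSFA2, and chance gives about 1 in 20. In 4 h PT replicate 4 HSFA2 had a signal of 118, and the other 3 arrays lay between 8.50 and 16.6 (gap over range 0.925, past Dixon's limit). In 0.5 h PT replicate 4 it had 52.5, and the other 3 lay between 7.27 and 13.4 (0.864). Both values lie below the lowest SIV PT array, at 498. Array 4 of 4 h PT also had the highest median signal of the 15 arrays, 108, against 73.9 to 97.9 on the others. Groups of 3 arrays were not tested.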

How the results depend on the processing

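Of 410 settings of the members' log2 changes, 393 kept the side of the limits and 0 called changes turned their direction. The calls of HSFA2 in both comparisons with SIV PT (log2 changes of 2.15 to 5.16 against dry pollen and 2.01 to 4.46 against 4 h PT), of MBF1C in SIV PT (4.79 to 7.14) and in 4 h PT (2.47 to 4.60) against dry pollen and of HSFA5 in SIV PT against dry pollen (-2.70 to -1.92) held in every alternative run. In SIV PT against 4 h PT median centring left 1 member changed, since HSFA5 came to -1.50, and leaving out 1 array gave 1 to 3. There HSFA5 was also lost with the offset 4 times as large (-1.30), and MBF1C passed with the offset 4 times as large (2.33), with a variance trend and with limits on the adjusted p. In 4 h PT against 0.5 h PT 1 member, MBF1C, changed with a variance trend, with adjusted p under 0.05 and 3-fold, and with adjusted p under 0.05 alone, and leaving out 1 array gave 0 to 1. Leaving out 1 array gave 3 to 3 in SIV PT against dry pollen, 1 to 1 in 4 h PT against dry pollen and 0 to 0 in 0.5 h PT against dry pollen. The cause was not tested beyond what each alternative changes.

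Replicate numbers did not pair the samples: over 21 pairs with the same number r of the deviations was -0.02 to 0.04, and 0 were over 0.1. With the replicate block 3, 2, 1, 0 and 0 members changed in the 5 comparisons taken from SIV PT against dry pollen to 0.5 h PT against dry pollen, and 1516, 1056, 164, 116 and 15 probe sets in all. The block changed no call of a member.

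Over all probe sets, adjusted p under 0.05 alone called 5636, 4990, 542, 321 and 34 in that order, beside 1571, 1090, 174, 116 and 14, and the larger offset called 111 in 4 h PT against dry pollen and 5 in 0.5 h PT against dry pollen. Over the same alternatives the target genes that changed numbered 8 to 14 in SIV PT against dry pollen, 0 to 13 in SIV PT against 4 h PT, 4 to 11 in 4 h PT against dry pollen and 2 to 9 in 4 h PT against 0.5 h PT. With the replicate block 3 rose in SIV PT against 4 h PT and 5 in 4 h PT against 0.5 h PT. The regulators numbered 3 to 5, 1 to 4, 0 to 1 and 0 to 0 in that order, the constitutive chaperones 4 to 4, 1 to 3, 1 to 3 and 0 to 3, and the other heat shock factors 0 to 2, 0 to 2, 0 to 0 and 0 to 0. The filter on dim probe sets removed HSFB1. Quantile normalization put the mean of MBF1C in SIV PT at 12001 and in 0.5 h PT at 261, of HSFA1A in SIV PT at 278 and of HSFA5 in SIV PT at 293. Signals near the floor limit what HSFB1 and, outside SIV PT, HSFA2 can show.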
